A study of Mus musculus with 21 samples.

Results

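The Six-Eya genes examined here were Six2, Six4, Six5, Eya1, Eya2, Eya3 and Eya4, 7 of the 55341 genes in the deposited count table, taken by symbol. All 7 were found in the table, and 6 of them passed the filter on low counts and were tested among 15240 genes. Six2 was the one that did not pass. All 7 were also located on the mouse genome (GRCm38.p6) and compared with the deposited chromatin domains.

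Six-family proteins are homeodomain transcription factors that bind DNA at sites called MEF3. Eya proteins do not bind DNA themselves. They are recruited by Six-family proteins and act as co-activators that also carry a phosphatase domain. In the embryo the Pax, Six-family, Eya and Dach genes form a network upstream of the myogenic factors Myod1 and Myog, and Six-family and Eya genes are used again in adult muscle stem cells and fibres.

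The cells were fibro-adipogenic progenitors (FAPs), mesenchymal cells of skeletal muscle that support repair and can become fat or fibrous tissue. Both genotypes came from adult mice with 2 floxed copies of Prdm16. The group called Prdm16 (Prdm16Flox/Flox::PdgfrαCre-ERT/+) also carried an inducible Cre recombinase at Pdgfra, a gene active in FAPs and other mesenchymal cells. The group called WT (Prdm16Flox/Flox::Pdgfrα+/+) carried no Cre. All mice had 5 days of tamoxifen and 7 days of rest before the muscle was injured with cardiotoxin. FAPs were sorted 5 days after injury and grown for 4 to 5 days. The data used were 5 RNA libraries (3 WT, 2 Prdm16), 6 lists of H3K9me2 domains (3 of each genotype) and 2 lists of LaminB1 domains (1 of each). H3K9me2 is a histone mark of repressed chromatin, and LaminB1 is a protein of the nuclear lamina, where much inactive chromatin lies. Nothing in the labels says whether replicates were separate animals, so p-values measure the spread between these libraries, which may be technical. The 2 Prdm16 RNA libraries differed in sex-linked genes, as given below, so their spread is not technical alone.

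The RNA libraries held 5839587 to 10657791 counts. Prdm16, the floxed gene, had 171, 94 and 59 counts in WT replicates 1, 2 and 3 and 91 and 86 in Prdm16 replicates 1 and 2, so its count did not separate the genotypes as labelled. The labels do not say which exons were floxed, and a whole-gene count can keep reads from exons that remain. The authors' deposited table of the comparison followed another grouping than the labels. DESeq2 p-values matched those of the authors' deposited table to 1% in 14607 of 14607 genes when WT replicate 3 and Prdm16 replicate 1 were exchanged, but in 169 when the labels were kept. Prdm16 replicate 2 also stood apart in sex-linked genes. It had 15 counts of Xist against 3483 to 4652 in the other libraries, and 372 of Ddx3y against 0 or 1. Genotypes below are those of the labels, and log2 fold changes of the tested members and of the named partners and targets are also given without WT replicate 3 and Prdm16 replicate 1. Wherever Prdm16 replicate 1 is left out, replicate 2 is the only Prdm16 library. Genotype and the sex-linked difference cannot be told apart in those fits. Of 8 FAP markers, 7 had a count in each of the 5 libraries, and Dpp4 was at 0 in WT replicate 3. The summed level of the 8 was 3068 to 5592 CPM (counts relative to the scaled library size, as edgeR gives them), lowest in WT replicate 3. The macrophage marker Adgre1 was at 0 in all 5, and Sox10, a Schwann cell marker, was at 0 in 4 of the 5.

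The MEF3 site is shown first because it links the members to their targets. RefSeq promoter windows (GRCm38.p6, 250 bases before to 50 after a gene start) were found for 5 of the 7 members, namely Six2, Six4, Six5, Eya3 and Eya4. They were searched on both strands for TCAGGTTTC and for the wider TCANGTTNC, of which the first is a special case. Among these members only Six4 held a match, to both forms, in 1 of its 2 windows, from 99 bases before the start and on the strand opposite to the gene. Of the 12 genes with a window among 19 known or candidate Six-family targets, Myog alone held one, 84 bases before its start. Neither form was found in the 9 windowed genes of 13 partner genes. Over all 27025 genes with a window, 0.511% held the first form and 3.76% the wider one. The 2 stretches follow in the direction of each gene, with the match in capitals. A match describes letters only and is not evidence of binding in these cells.
Six4, chr12:73113311-73113369, minus strand: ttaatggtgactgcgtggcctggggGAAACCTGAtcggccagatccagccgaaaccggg
Myog, chr1:134289895-134289953, plus strand: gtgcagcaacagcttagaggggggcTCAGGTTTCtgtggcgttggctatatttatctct

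The first comparison asked whether the RNA of these genes differed between FAPs of the 2 genotypes. No member did by the test: edgeR's quasi-likelihood test called 0 of the 6 tested members at a Benjamini-Hochberg adjusted p under 0.05, against a background of 0 of all 15240 genes (0%). No member had an unadjusted p under 0.05 either, where 378 of all genes did (2.48%). Among the tested members the highest library was between 1.45 times (Eya3) and 4.43 times (Eya1) the lowest. Eya1 alone had both Prdm16 libraries above every WT library, a pattern that 8.83% of all tested genes showed; no tested member had both below, as 8.96% of genes did. The tested members split into 3 with positive and 3 with negative log2 fold changes, where 50.1% and 49.9% of all genes were positive and negative. Without WT replicate 3 and Prdm16 replicate 1 there was again no call among the members, against 0.614% of all genes. Levels are compared within a gene only, because transcript lengths were not used here. In bulk RNA, fewer cells of a type and less RNA per cell cannot be told apart.

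Six4, first described as a factor that binds a regulatory element of a sodium pump gene, had 14.3, 16.5 and 10.5 CPM in WT replicates 1, 2 and 3 and 9.22 and 15.6 CPM in Prdm16 replicates 1 and 2. The groups overlapped, and the lowest and the second highest value were both from Prdm16 libraries. Prdm16 over WT gave a log2 fold change of -0.15 (SE 0.36, edgeR adjusted p = 0.9996). Without Prdm16 replicate 1 the sign turned, to 0.16, and without WT replicate 3 as well it was -0.0010. Six5, whose gene lies 722 bases from Dmpk, the myotonic dystrophy kinase gene, had 7.98, 11.0 and 3.36 CPM in WT and 4.90 and 6.22 CPM in Prdm16. WT replicates 1 and 2 were the highest and WT replicate 3 the lowest, so the WT libraries enclosed both Prdm16 libraries. The log2 fold change, -0.42 (SE 0.53), ran from -0.77 to -0.03 when single libraries were left out, with -0.63 when WT replicate 3 and Prdm16 replicate 1 were both left out. Dmpk itself had 56.3, 60.2 and 56.5 CPM in the WT libraries, beside 65.5 and 59.5 CPM in the Prdm16 libraries. Six2, known for keeping kidney progenitors undifferentiated, was close to the limit of detection. It had 10, 2 and 7 counts in WT and 2 and 3 counts in Prdm16, and no fold change is read from so few.

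Eya1, whose loss disturbs ear, kidney and early muscle development, had 0.48, 0.72 and 1.40 CPM in WT and 1.40 and 2.13 CPM in Prdm16. In counts these were 5, 5 and 15 against 12 and 12, so WT replicate 3 and Prdm16 replicate 1 were at nearly the same level. The log2 fold change of 0.98 (SE 0.68) had a 95% interval from -0.59 to 2.56, and edgeR's adjusted p was 0.9996. Without WT replicate 3 and Prdm16 replicate 1 it was 1.80 (adjusted p = 0.865), and over all 12 other fits it was positive, from 0.66 to that value. Eya2, a co-activator found in developing muscle and connective tissue, had 3.27, 2.01 and 2.43 CPM in WT and 2.45 and 5.68 CPM in Prdm16. Prdm16 replicate 2 alone lay above the WT range. The log2 fold change of 0.63 (SE 0.53) rested on that library and was -0.063 without it. It was 1.06 without WT replicate 3 and Prdm16 replicate 1.

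Eya3, the most evenly measured member, had 47.5, 32.7 and 43.1 CPM in WT and 38.1 and 34.8 CPM in Prdm16. Both Prdm16 values fell inside the WT range, and the highest library was 1.45 times the lowest. The log2 fold change of -0.17 (SE 0.24) was close to 0, and its 95% interval from -0.73 to 0.38 was the narrowest of the 6. It was -0.23 without WT replicate 3 and Prdm16 replicate 1. Eya4, a gene of hearing and heart muscle disease, had 2.12, 8.17 and 7.65 CPM in WT and 5.84 and 8.17 CPM in Prdm16. WT replicate 1 was low, and the other 4 libraries lay between 5.84 and 8.17 CPM. The log2 fold change of 0.23 (SE 0.58) changed sign when WT replicate 1 was dropped (-0.20) or when Prdm16 replicate 2 was (-0.02), and was 0.67 without WT replicate 3 and Prdm16 replicate 1. Eya4 had the widest range of the tested members, 1.73 on the scale of log2(CPM + 0.5). The 3 genes nearest to it in pattern over the 5 libraries, by root mean square distance of centred values on that scale, were Gm48139 (0.0403), Gm49411 (0.0487) and Gm49266 (0.0718), all predicted genes.

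**Figure D1:**
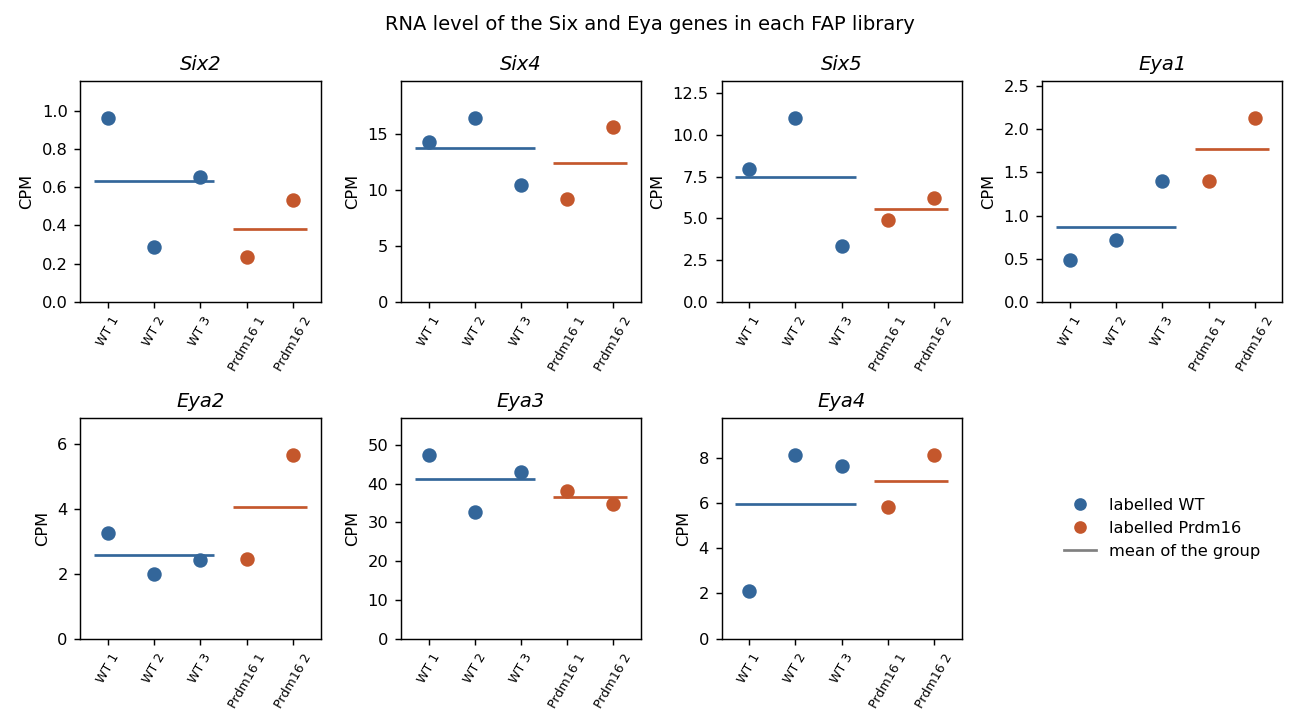
RNA level of each Six-family and Eya gene, in CPM of the scaled library with each axis starting at 0, in the 3 libraries labelled WT (blue) and the 2 labelled Prdm16 (orange); lines are group means. The groups overlap for every gene but Eya1, where Prdm16 replicate 1 and WT replicate 3 both stand at 1.40 CPM.

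**Figure D2:**
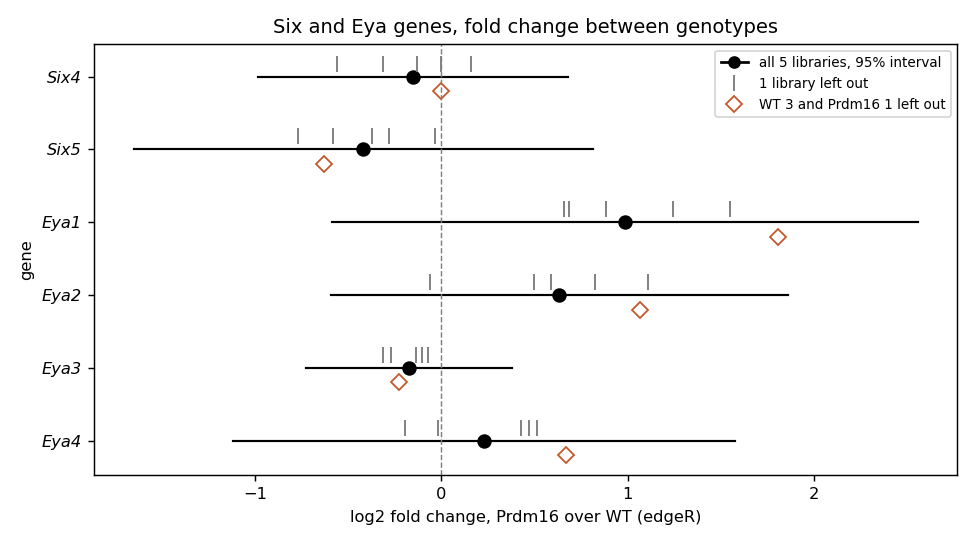
Log2 fold change of Prdm16 over WT for the 6 tested genes with its 95% interval from edgeR (black), the values with 1 library left out (ticks) and with WT replicate 3 and Prdm16 replicate 1 both left out (diamonds). Every interval includes 0, and Eya1 reaches 1.80 without those 2 libraries.

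The order of the Eya1 values was shared by markers of myoblasts, the muscle precursors that a FAP sort can carry over. WT replicate 3 and both Prdm16 libraries were above WT replicates 1 and 2 in Eya1, 1 of the 6 tested members, and in 9 of 12 myoblast markers. Among the 9 of these markers that passed the filter, 7 had this order, beside 14.0% of all tested genes. The order was picked out after the values were seen, as were the 3 markers given next. The same libraries were above in 1 of 8 FAP, 1 of 4 endothelial, 1 of 4 macrophage, 0 of 4 Schwann and 0 of 5 pericyte markers. Des, a muscle intermediate filament, had 27.9, 32.0 and 103 CPM in WT and 80.3 and 93.1 CPM in Prdm16. Chrna1, a subunit of the muscle acetylcholine receptor, had 22.4, 42.4 and 104 CPM in WT and 83.9 and 81.2 CPM in Prdm16. Pax7, the defining gene of muscle stem cells, was at 0 in WT replicates 1 and 2, had 11 counts in WT replicate 3 and 1 in each Prdm16 library. The summed level of the 12 markers ran from 593 to 970 CPM in WT and was 810 and 788 CPM in Prdm16. The largest parts of that sum in every library were Sdc4 and Vcam1, which did not follow the order. Sdc4 had 319, 239 and 301 CPM in WT and 218 and 290 CPM in Prdm16. For Vcam1 the values were 140, 347 and 194 CPM in WT and 221 and 116 CPM in Prdm16. The part of the myoblast markers in the Eya1 values was not tested.

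The authors' deposited table, which follows its own grouping as given above, called none of the 7 genes. Its threshold differs from the one used here: the calls in the authors' deposited table had adjusted p-values up to 0.0995 and log2 fold changes of at least 0.50 in size. The log2 fold changes of the authors' deposited table ran from -0.17 for Six5 to 0.10 for Eya4. These look pulled toward 0: Six5 had an error of 0.29, larger than its fold change, beside a DESeq2 p-value of 0.124. Their sizes are therefore not comparable with the edgeR values above. The authors' deposited table gave an adjusted p for these 2 members alone, 0.727 for Six5 and 0.713 for Eya4, while 7.55% of all genes with an adjusted p were called in the authors' deposited table. For Six4 and Eya3 the authors' deposited table listed log2 fold changes of -0.02 and -0.01. For Eya1 and Eya2 the authors' deposited table listed 0.07 and 0.08.

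Genes that work with Six-family and Eya proteins were also read from the same fit. Of 13 partners, which are the Pax and Dach genes of the network, the Tle and Ski co-repressor families, the co-factor Sobp and the histone gene H2afx, 11 were tested. Of these 6 had positive and 5 negative log2 fold changes. Of all tested genes, 50.1% and 49.9% did. EdgeR called 0 of the 11, as of all tested genes (0%), and 0 reached an unadjusted p under 0.05, where 2.48% of all tested genes did. Their median was 0.05, beside 0.00053 over all tested genes, and its sign was not stable. It ran from -0.11 without WT replicate 2 to 0.20 without WT replicate 1, and was -0.07 without WT replicate 3 and Prdm16 replicate 1. Dach1, a co-repressor that binds Eya proteins, was the partner with the smallest p. It had 2.02, 1.43 and 1.68 CPM in WT and 2.80 and 4.97 CPM in Prdm16, so both Prdm16 libraries lay above all WT libraries. Dach1 was the 1 of 11 tested partners with that pattern, which 8.83% of all tested genes showed, so it is not read as a trait of the partners. The log2 fold change was 1.16 (SE 0.51, edgeR unadjusted p = 0.0516, adjusted p = 0.9996). It was 0.71 without Prdm16 replicate 2 and was 1.48 without WT replicate 3 and Prdm16 replicate 1. Aes, a short Groucho-family protein, had 238, 110 and 85.0 CPM in WT and 87.5 and 74.2 CPM in Prdm16, with WT replicate 1 far above the rest (log2 fold change -0.83, SE 0.44). Without that library the value was -0.28, and without WT replicate 3 and Prdm16 replicate 1 it was -1.26. The co-repressor genes Tle1 and Skil had log2 fold changes of 0.40 and -0.28, neither of which passed the test. Tle1 ranged from 0.19 without Prdm16 replicate 2 to 0.71 without WT replicate 3 and Prdm16 replicate 1. Skil was 0.025 without WT replicate 3 and 0.0039 without Prdm16 replicate 1 as well.

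Of 19 targets, 14 were tested, with 10 positive and 4 negative log2 fold changes (50.1% and 49.9% over all genes) and a median of 0.22. None passed the test, and 2, Ckm and Tnnc1, had an unadjusted p under 0.05, where 2.48% of all genes did. Ckm, the muscle creatine kinase, had 6.06, 4.87 and 10.1 CPM in WT and 17.3 and 11.4 CPM in Prdm16 (log2 fold change 1.03, SE 0.41, edgeR unadjusted p = 0.0365). Tnnc1, the slow and cardiac troponin C, had 25.6, 30.5 and 52.3 CPM in WT and 63.0 and 58.4 CPM in Prdm16 (log2 fold change 0.75, SE 0.32, edgeR unadjusted p = 0.0449). Both Prdm16 libraries were above every WT library for Ckm, Tnnc1 and Slc12a2, and below for Met, 4 of 14 against a background of 17.8%; Slc12a2 and Met were named after their values were seen. Myog, which carries the MEF3 letters shown above, had 31.7, 54.9 and 130 CPM in WT and 120 and 87.2 CPM in Prdm16. Myog thus had a log2 fold change of 0.52 (SE 0.59), smaller than its error. It ran from 0.15 without WT replicate 1 to 1.26 without WT replicate 3. With the replicate block, where WT replicate 3 adds nothing to the genotype difference, it was 1.29. Without WT replicate 3 and Prdm16 replicate 1 it was 0.99. Myod1, the master regulator of the muscle lineage, had 5.10, 8.60 and 29.4 CPM in WT and 12.6 and 16.0 CPM in Prdm16, with a log2 fold change of -0.02. That value rested on WT replicate 3, the highest library, and was 1.07 without it and 1.21 without Prdm16 replicate 1 as well. In the authors' deposited table, with its own grouping and scale, Myod1 was called up at a log2 fold change of 1.05 (adjusted p = 0.0559). Myog was not called there, at 0.19. Mef2c, a muscle transcription factor gene, stood at 0.49, with 0.25 without Prdm16 replicate 1. The cyclin gene Ccnd1 stood at 0.43, with 0.17 without Prdm16 replicate 2. Without WT replicate 3 and Prdm16 replicate 1 the log2 fold changes were 1.02 for Ckm, 1.04 for Tnnc1, 0.46 for Mef2c and 0.83 for Ccnd1. Ckm also moved with Prdm16 replicate 1 alone, to 0.66 without it. The median of the targets depended on single libraries. It was 0.52 without WT replicate 3 and 0.51 with the replicate number as a block, which leaves that library without weight. It was 0.53 without WT replicate 3 and Prdm16 replicate 1, and -0.07 without Prdm16 replicate 2. Myod1 and Myog are also 2 of the 12 myoblast markers whose values are given above. The part of myoblast RNA in the target values was not tested.

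**Figure D3:**
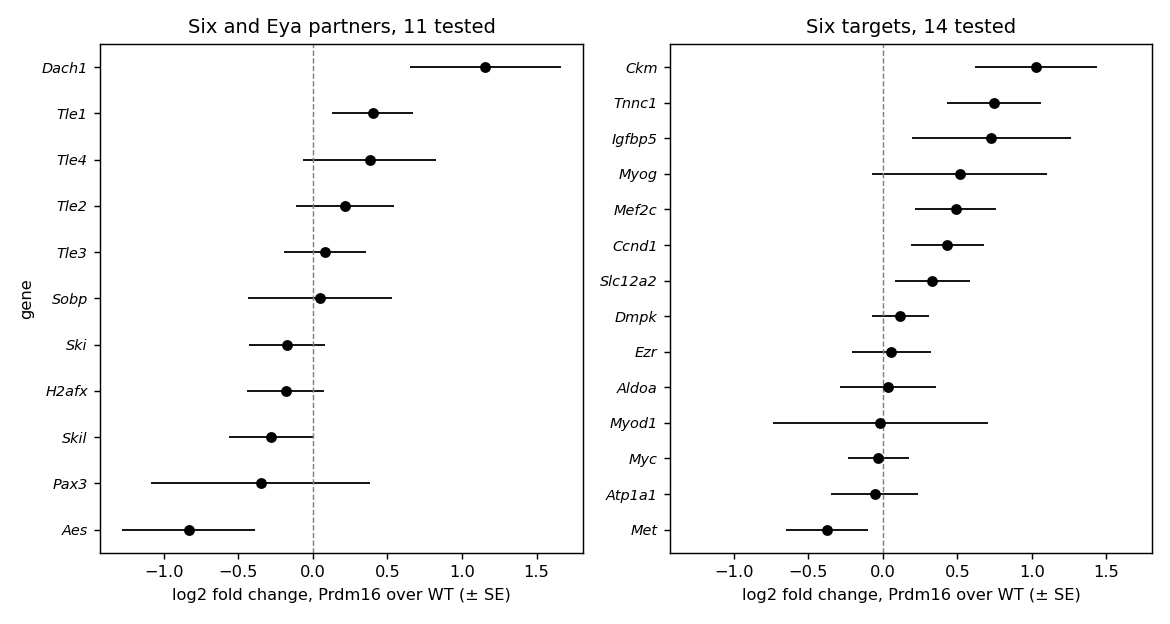
Log2 fold change of Prdm16 over WT with its SE (edgeR, 5 libraries) for the 11 tested partners and 14 tested targets. Dach1 (1.16) and Ckm (1.03) are highest and Aes (-0.83) lowest, and none passed the test.

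The second comparison asked whether the genes lay in H3K9me2 domains and whether that differed between the genotypes. Eya1 was inside a domain over 100% of its body in all 6 libraries, and the other 6 genes had no covered base in any library. The difference between genotypes was therefore 0 percentage points for each. With every library at 0% or at 100%, the exact two-sided permutation test could only give p = 1 (n = 3 and 3), and it adds nothing to these values. Over 38166 located genes, 5.01% had a share of 0.5 or more of the body covered in all 6 libraries, 74.1% reached that share in none, and 73.1% had no covered base in any. Classes that did split by genotype were rare, with 0.288% of genes covered in all WT and no Prdm16 library and 0.113% the reverse. No member was in either class, and from 1 covered gene in 7 nothing more is read.

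Eya1 lies on chromosome 1 from 14168953 to 14311035. The domain around it was 1803 to 2298 kb long, with a median of 1988 kb. Its score, a value of the authors' own, was in the upper part of each library, between the percentiles 79.6 and 94.1. The stretch covered in all 6 libraries ran from 13818001 to 15600000 and left 351 kb before the gene and 1289 kb after it. It held 8 located genes, of which 3 were protein-coding: Eya1, Msc, a repressor of myogenic factors, and Trpa1, an ion channel of sensory neurons. Of these 8, Eya1 and the pseudogene Rpl5-ps1 passed the RNA filter, while Msc and Trpa1 had mean levels of 0.386 and 0.266 CPM. Being tested for RNA and lying in such a domain was an uncommon pairing, but Eya1 passed the RNA filter narrowly. The filter's minimum count was 10, scaled to library size. Eya1 had 5, 5 and 15 counts in WT and 12 and 12 in Prdm16, so the pairing is not read as a trait of the gene. Of 13772 tested and located genes 0.675% were covered in all 6 libraries, against 7.46% of 24394 located genes that were not tested.

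Six2 and Eya4 lay outside domains but next to them in some libraries. Six2, on chromosome 17 from 85662736 to 85688254, stood in a gap of 99 to 111 kb between 2 domains in WT replicates 1 and 2 and Prdm16 replicates 1 and 2. The nearer of these began 6.7 or 9.7 kb upstream of the gene start. In WT replicate 3 and Prdm16 replicate 3 the nearest domain was 211 and 145 kb away. Eya4, on chromosome 10 from 23102962 to 23350838, had a domain 27.0 to 108 kb beyond its end in WT replicates 1 and 2 and Prdm16 replicates 2 and 3, and none nearer than 3255 kb in the other 2 libraries. Both patterns were found in libraries of each genotype. Six4 (chromosome 12, 73099609 to 73114031), Eya2 (chromosome 2, 165595028 to 165771727) and Eya3 (chromosome 4, 132639025 to 132724765) were 704 kb or more from any domain in all 6 libraries. Six5 (chromosome 7, 19094544 to 19098549) was 351 kb or more away.

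**Figure D4:**
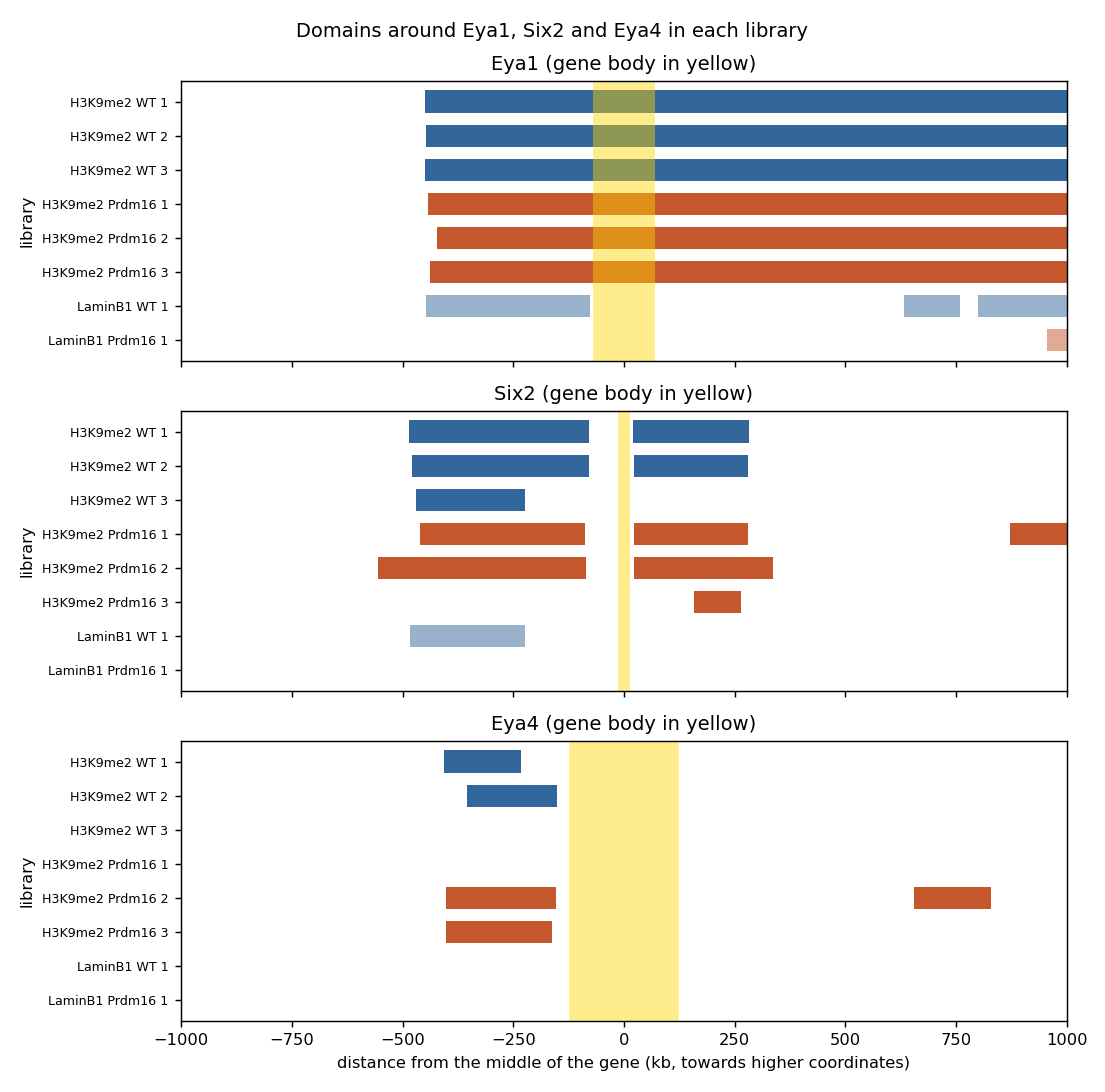
Domains within 1000 kb of Eya1, Six2 and Eya4 in each library, by distance in kb from the middle of the gene, with H3K9me2 in full colour, LaminB1 in pale colour, WT blue and Prdm16 orange; yellow marks the gene body. Eya1 is inside a domain in all 6 H3K9me2 libraries, and Six2 sits in a gap between domains in 4 of them.

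LaminB1 domains covered no base of any member in either library, and 78.1% of all located genes were likewise free of them. With 1 library of each genotype these values have no replicate check. In WT, Eya1 was the closest member: a domain of 372 kb ended 5.0 kb before the lower-coordinate end of the gene. In Prdm16 the nearest domain to Eya1 was 885 kb away on the other side, and Six5 (406.5 kb) and Eya3 (879 kb) were nearer to one. Eya1 was one of 1913 genes (5.01%) covered by H3K9me2 in all 6 libraries, of which 786 (2.06% of all) had no LaminB1 base in either library. Other parts of the H3K9me2 domain around Eya1 did hold LaminB1. Relative to the middle of the gene, WT had LaminB1 domains at -448 to -76, 632 to 760 and 800 to 1352 kb. Prdm16 had one at 956 to 1060 kb. The nearest LaminB1 domain to Six2 was 211 kb away in WT and 3092 kb in Prdm16. The Prdm16 list covered less of the genome, 330.6 Mb against 693.4 Mb, and a share of 0.5 or more of the body was covered for 13.0% of genes against 21.0%. For the other 5 members the 2 libraries gave distances of 394.5 to 5801 kb.

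**Figure D5:**
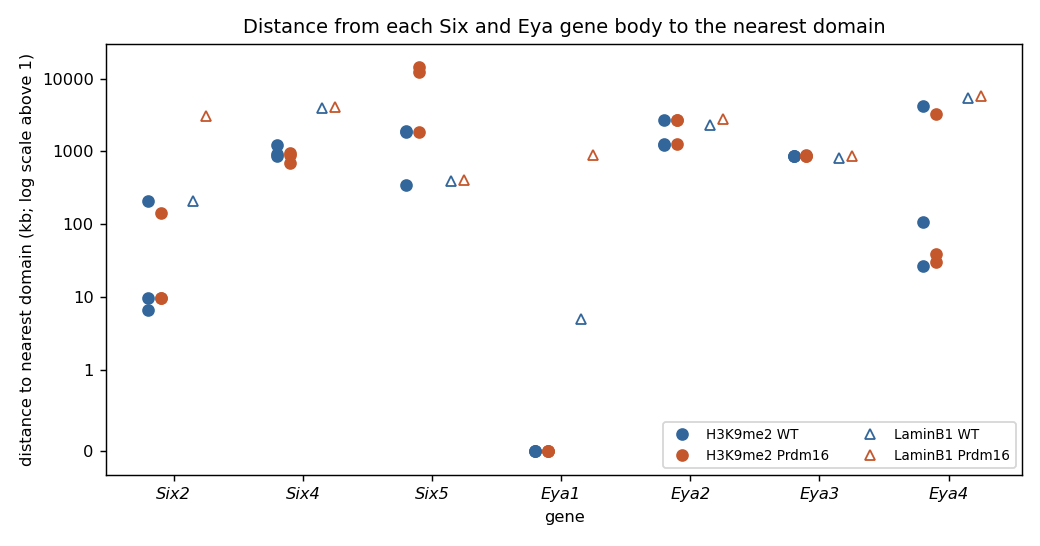
Distance in kb from each gene body to the nearest H3K9me2 domain (filled circles, 6 libraries) and LaminB1 domain (open triangles, 2 libraries), on a log scale above 1 kb with 0 for overlap. Eya1 is at 0 in all 6 H3K9me2 libraries, and its LaminB1 distances are 5.0 kb in WT and 885 kb in Prdm16.

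Dach1, Dach2, Tle1 and Tle4 were covered by H3K9me2 at a share of 0.5 or more in some of the 6 libraries. The other 9 of 13 partners reached that share in none, as did 74.1% of all 38166 located genes, so this is not read as a trait of the partners. Dach1 was covered by 100% in WT replicate 3 and Prdm16 replicate 2, by 16.0% in WT replicate 1 and not at all in the other 3. Tle4 was covered by 100% in WT replicates 1 and 3 and Prdm16 replicate 2 and by 9.95% in Prdm16 replicate 3. Tle1 was covered by 100% in WT replicates 1 and 3 and in Prdm16 replicates 2 and 3. Dach2, on chromosome X, was covered by 100% in WT replicates 1 and 3 and in no Prdm16 library. Any part of sex in the Dach2 values was not tested. WT replicates 1 and 3 and Prdm16 replicate 2 held 1017, 887 and 841 Mb of H3K9me2, and the other 3 held 575 to 690 Mb. The part of total domain length in this was not tested. Of the 19 targets 18 were covered at a share of 0.5 in no library, Myod1 and Myog among them, though Mef2c had up to 7.96% of its body in a domain. Sall1, a kidney and limb regulator, was the exception, covered by 100% in all H3K9me2 libraries but WT replicate 3. LaminB1 covered Sall1 by 100% in WT and in Prdm16, and Pax7 by 94.27% in WT and 0% in Prdm16. No other partner or target was covered by LaminB1 at a share of 0.5. Of all located genes 21.0% were in WT and 13.0% in Prdm16.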

How the data were processed

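The members and gene lists were chosen with earlier results of these data known. Per the labels, SMART-seq2 libraries were made from polyadenylated RNA. STAR 2.7, Bowtie 1.2.2, featureCounts and DESeq2 1.20 appear in the submitters' processing notes, as do GRCm38, mm10 and dm6, all without roles. What called the domains is not given in these sources. Raw counts per gene in 5 libraries made up the deposited count table. The authors' table of the comparison held a mean normalized signal, a log2 fold change with its error and a p-value per gene. Each deposited domain list held positions and the authors' score for 1 library.

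Counts were fitted as labelled with edgeR 4.0.16 in R 4.3.3 (filterByExpr at defaults, trimmed mean of M-values, robust quasi-likelihood, two-sided, Benjamini-Hochberg over 15240 genes, threshold 0.05); the fitting script was first checked on simulated counts with known changes. Alternatives used DESeq2 1.42.0, limma 3.58.1, other scalings, no filter, a replicate block and left-out libraries. Positions came from RefSeq GRCm38.p6 by symbol or older symbol (38166 genes); Python 3.11.15 computed the cover of gene bodies, counted as covered at a share of 0.5. Promoter windows were read from RefSeq. Named genes were the 7 members, up to 4 partners and 4 targets by smallest unadjusted p, Myod1, Myog, the 3 genes nearest in pattern to the tested member of widest range, and Prdm16 or markers where a result turned on them. The normalized table and the 8 input samples were not used here. With 5 RNA libraries, precision was limited by their number, and for Six2 and Eya1 by counts of 15 or fewer.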

Additional observations from a re-analysis of the deposited data

How the results depend on the processing

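No member, partner or target passed the test under any of the 12 other fits, and the count of 1 member inside H3K9me2 in all libraries was the same under each share, window, score and left-out library tried. The count of 0 members inside LaminB1 was the same under each share, window and score tried; with 1 library of each genotype none was left out. With 1 library left out, log2 fold changes ran from -0.56 to 0.16 for Six4, -0.77 to -0.03 for Six5, 0.66 to 1.55 for Eya1, -0.063 to 1.11 for Eya2, -0.31 to -0.07 for Eya3, -0.20 to 0.51 for Eya4, -0.48 to 0.025 for Skil and -0.44 to 1.07 for Myod1. Without WT replicate 3 and Prdm16 replicate 1, Skil stood at 0.0039 and Myod1 at 1.21, and limma-voom gave 0.32 for Myod1. The cause of these turns was not tested. With the replicate number as a block, 0 members were called, Eya1 stood at 1.53, Skil at 0.030 and Myod1 at 1.10. Replicate 3 exists in WT only, so WT replicate 3 adds nothing to the genotype difference in the block fit. Its values are therefore close to those without WT replicate 3 (1.55, 0.025 and 1.07), and the 2 fits are not separate checks. The replicate numbers were not taken as pairs, since the labels do not say that they pair the samples. Deviations from the group mean of same-numbered libraries correlated at 0.21 and -0.21 for RNA and at 0.03, -0.15 and 0.13 for H3K9me2. The deviations of the 2 Prdm16 RNA libraries mirror each other, so the RNA values cannot decide on pairing. Where only 1 Prdm16 library was left, it was assumed to vary like the WT libraries. In the fits without Prdm16 replicate 1 that library was replicate 2, which stood apart in sex-linked genes. Over all genes, edgeR called 0, against 25 with no filter on low counts, 93 without WT replicate 3 and Prdm16 replicate 1 (0.614%), 4 without Prdm16 replicate 1, 1 with upper-quartile scaling, 1 with the block and 2 by DESeq2. Depth of the domain libraries is unknown.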
